A study of Mus musculus with 11 samples.

Results

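Untreated HL-1 cardiomyocytes were analysed on the 4 arrays whose treatment label is control, out of 11 arrays in the series. HL-1 is an established line of cardiac muscle cells from adult mouse atrium that keeps dividing in culture. Every flask held this same line, so the arrays compare flasks and not animals. The study asked what messenger RNA such cells pack into secreted exosomes, and these arrays describe the cells themselves. The other arrays, 4 of cells given TGF-beta2 and 3 of cells given PDGF BB, were not compared with the control arrays here. Cells of all groups had been grown in T75 flasks with ultracentrifuged serum and norepinephrine. The growth factors were given in medium with neither serum nor antibiotics, and the medium of every group was taken after 23 h. The control flasks received no growth factor, and the methods do not state separately whether their medium held serum. Cells were harvested with trypsin after the medium had been taken, and total RNA was amplified and hybridized to MouseRef-8 beadchips. Control 1 and control 2 lay on chip 1, at positions A and E, and control 3 and control 4 lay at the same positions on chip 2. Each array came from its own flask, and the methods describe the 4 of a group as different flasks or experiments. They do not say whether passages differed, so the spread between arrays may be partly technical.

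Atrial heart muscle differs from ventricular muscle in its myosin light chains and in the natriuretic peptide that it stores and secretes. Contraction of either kind starts with calcium entry and release and ends when the SERCA2 pump, the product of Atp2a2, returns calcium to the sarcoplasmic reticulum. HL-1 descends from an atrial tumour of mice in which the Nppa promoter drove the SV40 large T antigen, a viral protein that binds p53 and the retinoblastoma protein, and the line is known for dividing while it keeps a contractile phenotype.

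Each array held 25697 probes. A transcript was called expressed where its probe had a detection p-value under 0.05 on all 4 control arrays, and a gene where at least 1 of its probes did. The detection p-value compares the signal of a probe with that of negative control beads. By this rule 10651 probes, 41.4% of all, and 7335 of 16593 named genes, 44.2%, were expressed in untreated HL-1 cells. A further 804 probes passed on 3 arrays, 794 on 2 and 1626 on 1, while 11822 (46.0%) passed on 0. Single arrays had between 11784 detected probes (control 2) and 12353 (control 1), with a mean signal before normalization between 589 and 716 and a median of 35 to 38 beads per probe. Just inside the limit, the probes of Nxf3 and Alg6 had a detection p-value of 0.0489 on control 2, and that of the olfactory receptor gene Olfr985 had it on control 1. Just outside, the probes of Gpd2 and Fam160a1 had 0.0501 on control 2 and that of Supt20 had it on control 3.

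Genes were ranked by the median normalized signal intensity of the 4 arrays, with the brightest probe of a gene standing for it. Such a rank orders probe signals. How well a probe binds enters its signal, so the rank is not an order of transcript abundance. Of 4777 genes with several probes, 934 (19.6%) had 1 or more expressed probes beside a probe that passed on 0 arrays. They made up 32.9% of the 2843 such genes with an expressed probe, which limits what an undetected probe says. Probes of Eef1a1, which encodes the main translation elongation factor, and of Actg1, which encodes cytoplasmic gamma actin, did not pass on all arrays although cells use both genes widely.

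The promoters of the 3 atrial and actin genes Nppa, Acta2 and Myl7 are printed beside those of Tubb5 and Atp5b, because all 5 genes ranked among the brightest 165 while their promoters differ in CpG content. Each stretch runs from 250 bases before to 50 bases after the annotated start (RefSeq, GRCm38.p6), read 5′ to 3′ along the strand of the gene, and capitals mark each CG dinucleotide.
Nppa, chr4:148000472-148000771, plus strand: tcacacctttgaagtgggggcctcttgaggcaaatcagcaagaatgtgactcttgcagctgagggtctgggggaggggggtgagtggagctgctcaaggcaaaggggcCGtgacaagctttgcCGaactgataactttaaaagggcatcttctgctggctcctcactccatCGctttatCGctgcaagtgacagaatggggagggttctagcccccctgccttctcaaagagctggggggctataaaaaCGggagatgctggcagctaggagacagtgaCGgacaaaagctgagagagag
Acta2, chr19:34255324-34255623, minus strand: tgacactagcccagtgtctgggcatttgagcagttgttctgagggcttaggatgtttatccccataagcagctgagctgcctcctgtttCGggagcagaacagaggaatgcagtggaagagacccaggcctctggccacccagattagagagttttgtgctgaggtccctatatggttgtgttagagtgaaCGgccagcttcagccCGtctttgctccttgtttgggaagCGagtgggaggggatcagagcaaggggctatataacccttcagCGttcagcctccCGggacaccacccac
Myl7, chr11:5898733-5899032, minus strand: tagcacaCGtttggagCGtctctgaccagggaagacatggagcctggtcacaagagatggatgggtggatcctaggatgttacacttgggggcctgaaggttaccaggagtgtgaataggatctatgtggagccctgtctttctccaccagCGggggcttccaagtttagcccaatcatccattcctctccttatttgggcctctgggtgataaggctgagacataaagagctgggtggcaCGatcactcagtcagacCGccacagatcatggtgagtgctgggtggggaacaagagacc
Tubb5, chr17:35838252-35838551, minus strand: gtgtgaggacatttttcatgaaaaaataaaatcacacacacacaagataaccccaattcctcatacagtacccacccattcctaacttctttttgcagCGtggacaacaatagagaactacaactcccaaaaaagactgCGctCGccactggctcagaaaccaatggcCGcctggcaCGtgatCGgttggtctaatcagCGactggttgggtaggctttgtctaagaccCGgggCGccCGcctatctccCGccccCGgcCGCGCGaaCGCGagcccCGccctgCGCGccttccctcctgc
Atp5b, chr10:128083057-128083356, plus strand: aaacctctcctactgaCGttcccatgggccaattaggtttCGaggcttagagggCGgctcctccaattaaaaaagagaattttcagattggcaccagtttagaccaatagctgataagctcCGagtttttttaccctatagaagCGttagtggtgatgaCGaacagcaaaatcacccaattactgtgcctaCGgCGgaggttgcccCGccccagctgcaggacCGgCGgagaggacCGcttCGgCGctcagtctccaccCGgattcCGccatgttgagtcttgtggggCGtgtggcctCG
The Nppa promoter held 6 CG dinucleotides, that of Acta2 6 and that of Myl7 5, against 20 for Tubb5 and 18 for Atp5b. Their GC content lay between 53.7% and 55% in all 5. The motif TATAAA, searched on both strands, occurred in that of Nppa, 9 bases before the annotated start, and in 0 of the other 4 windows. It occurred in 13.6% of all promoters of the table. The Myl7 window held a CArG box, the motif bound by serum response factor, 61 bases before its start, and 1.63% of all promoters held one. Only the exact form was searched, CC, 6 letters A or T, and GG. Looser forms of either motif were not counted, such as ccctatatgg and tatataa in the printed Acta2 window.

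The 4 genes given as marks of HL-1 cells were expressed and bright on every array. Acta2, which encodes smooth muscle alpha actin and is also expressed in immature heart muscle, ranked 1 of 16593. Its brightest probe had signals of 53318, 54494, 51335 and 60525 on control 1 to 4, a mean of 54918 ± 3959 (SD, n = 4). Control 4 was the brightest array and control 3 the dimmest, and all 4 probes of Acta2 were expressed. Ranked array by array, Acta2 stood at 2, 1, 3 and 1, so its order against Tuba1b (alpha tubulin) and Rplp1 (an acidic ribosomal protein) did not hold on every array. Without control 2 or control 3 it ranked 2.

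Myl7, the regulatory light chain of atrial myosin, ranked 16. Its signals were 43013, 39284, 47356 and 40878, with control 3 brightest, and its mean was 42633 ± 3499.9 (SD, n = 4). Myl4, the essential light chain of atrial myosin, ranked 9, at 46622, 44635, 46517 and 55079.5. For Myl4 control 4 stood above the other arrays, which lay close together. Nppa, which encodes atrial natriuretic peptide, ranked 165, with signals of 10590.4, 13787, 11349.9 and 14705. Here both arrays at position E were above both at position A. Atp2a2 ranked 60, at 25919, 25673, 25443 and 29981. Control 4 stood apart from the other 3 arrays, which lay between 25443 and 25919, and the second probe of Atp2a2 was also brightest on control 4, at 29396 against 17369 to 20825.

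**Figure D1:**
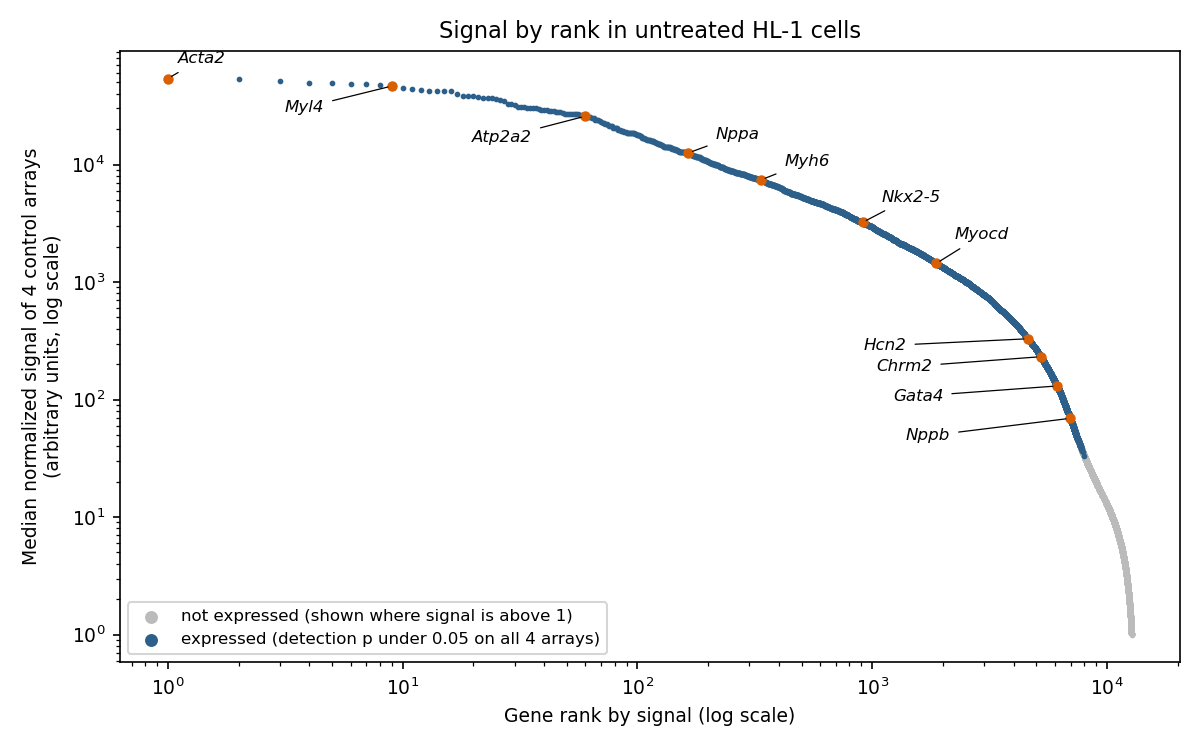
Median normalized signal of the 4 control arrays (arbitrary units, log scale) against gene rank (log scale), with expressed genes in blue, genes that are not expressed in grey and 11 heart genes marked. Acta2 stands at rank 1, Nppa at 165, the transcription factor gene Nkx2-5 at 910 and Nppb at 6965, close to where expressed genes end.

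The 100 brightest probes held 20.1% to 20.3% of the summed signal of an array, and the brightest 1000 held 59.6% to 59.7%. Of the 100 brightest genes, 27 were on the list of cytosolic ribosomal proteins and 15 on that of oxidative phosphorylation. Uqcr10, Ndufa13 and Ndufb6, respiratory chain subunit genes that the list does not hold, ranked 23, 72 and 88. After Acta2, Tuba1b and Rplp1 came Tubb5 (beta tubulin), Hspa8 (the constitutive HSC70 chaperone), Atp5b (the beta subunit of ATP synthase), Rpl37, Rpl41, Myl4 and Ubb-ps, the symbol given for 2 probes of ubiquitin sequence whose near-identical copies an array may not separate. Tubb5 was the least even of these genes, at 49759, 48784, 35516 and 53857. Its control 3 signal lay well below the other 3, while Rplp1 stayed between 50214 and 53313. Among the 20 brightest probes, 5 have no gene symbol.

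Gene lists gave the content of the cells by role. On 40 lists, 560 of 874 genes with a named probe were expressed (64.1%), against 44.2% of all named genes. That share of all named genes is the background for every list count given below. Most lists of cardiac, metabolic and growth genes lay above the share of all genes, and most lists of other cell types below it, as the bar chart of lists shows. No list was tested, since the lists were chosen with results of these arrays known.

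**Figure D2:**
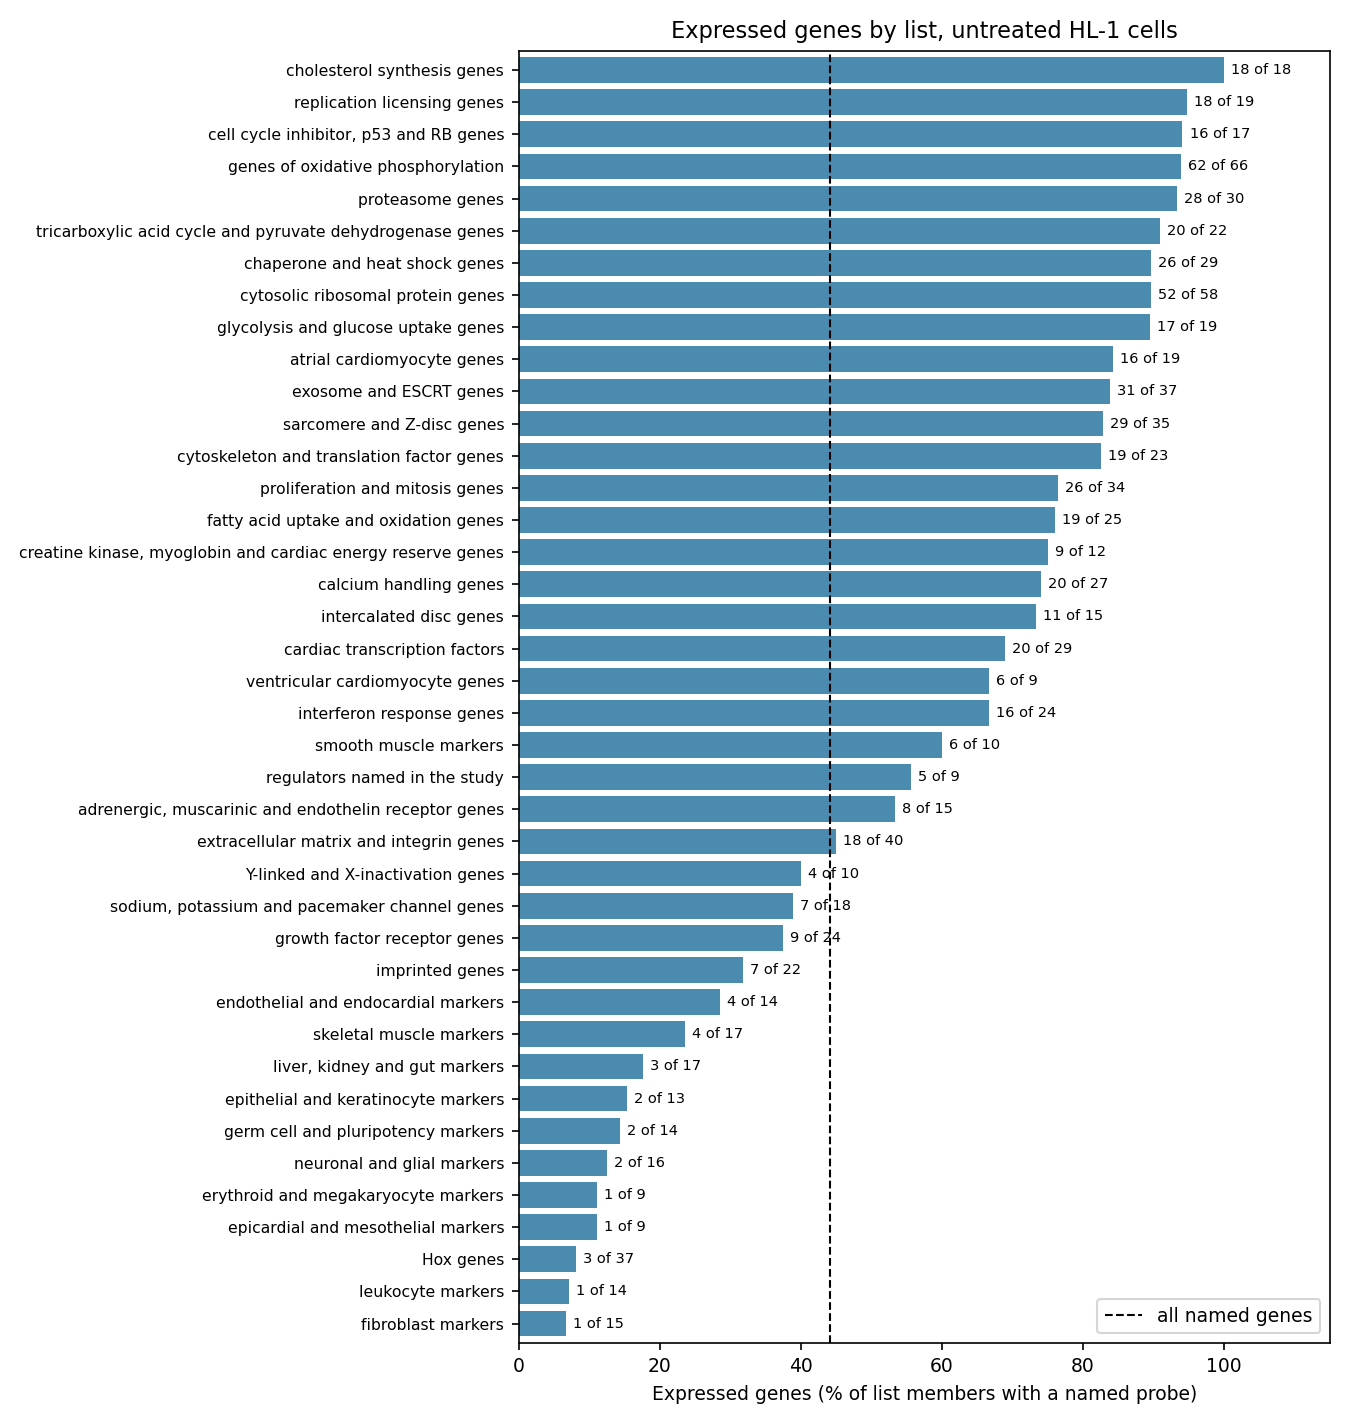
Percent of the genes of each list that were expressed in untreated HL-1 cells, with the count of expressed genes of those with a named probe beside each bar. The dashed line is the share of all named genes, 44.2%. Cholesterol synthesis stands at the top with 18 of 18 and fibroblast markers at the bottom with 1 of 15.

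Of the atrial cardiomyocyte genes, 16 of 19 were expressed (84.2%, against 44.2% of all named genes). Dkk3, which encodes a secreted protein of the Dickkopf family, ranked 170 and had signals of 12566, 10957, 11636 and 17626. Clu (clusterin, a secreted chaperone) ranked 272, and Stard10 (a lipid transfer protein) ranked 467. Nr2f1, which encodes the nuclear receptor COUP-TFI, had 2092, 1065, 2146 and 2299.8, so that control 2 lay below the other arrays. Gja5 (connexin 40, the atrial gap junction protein) was even, at 701, 771, 780.2 and 698. Several atrial genes were dim although they passed on every array. Nppb, the gene for brain natriuretic peptide, stood at 66.9, 71.6, 97.1 and 54.5 and ranked 6965 of 16593, while Nppa, the other natriuretic peptide gene of the atrium, ranked 165. Sln (sarcolipin, an inhibitor of the SERCA pump) had 109.5, 159, 169 and 120.1, with control 1 lowest and control 3 highest. Tbx5, a transcription factor of atrial and septal development, had 146, 63.7, 110.2 and 73.1, lower at position E on both chips. Of the potassium channel genes of the list, Kcnj5 and Kcnk3 were expressed, Kcnj3 passed on 3 arrays and Kcna5 on 0. Bmp10, which encodes a growth factor of trabecular and atrial muscle, also passed on 0.

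Of the ventricular cardiomyocyte genes, 6 of 9 were expressed (66.7%, against 44.2% of all named genes). The bright ones were Lbh (a transcription cofactor, rank 302), Fhl2 (a LIM protein, rank 316) and Pln (phospholamban, the other inhibitor of SERCA2, rank 1708). The contractile genes that mark ventricle were dim. Myl2, the regulatory light chain of ventricular myosin, had signals of 204.6, 258, 201 and 856. Control 4 stood at 856 against at most 258 on the other arrays, and Myl2 ranked 5225. Myl3 (the essential light chain) had 124, 88.2, 71.3 and 215, and Myh7 (beta myosin heavy chain) had 65, 70.4, 99.8 and 144. All 3 were brightest on control 4. The probes of Irx4, Hey2 and Kcnj2 passed on 0 arrays.

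**Figure D3:**
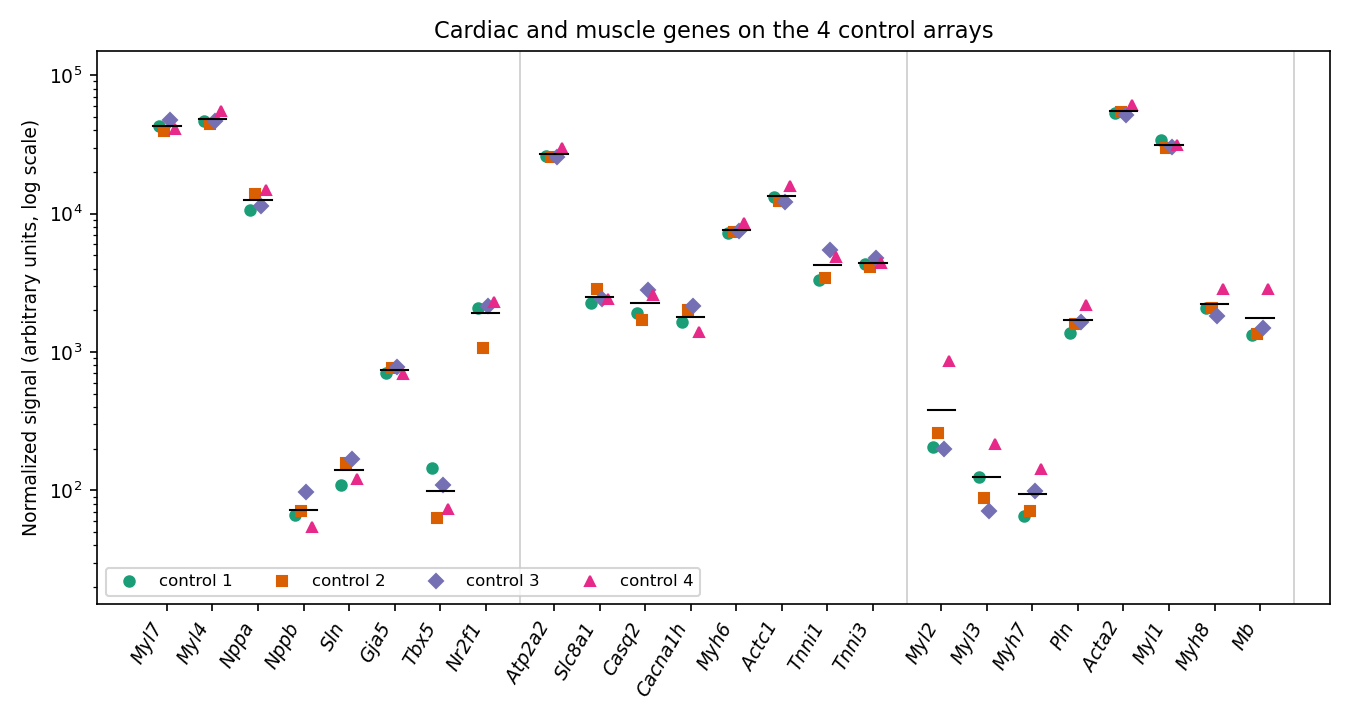
Normalized signal (arbitrary units, log scale) of 24 heart and muscle genes on the 4 control arrays, 1 symbol per array, with a bar at the mean. Atrial genes stand on the left, calcium handling and sarcomere genes in the middle, and ventricular, actin and skeletal muscle genes on the right. Control 4 stands above the other arrays for Myl2, Myl3, Myh7 and Mb.

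Sarcomere genes were expressed in 29 of 35 cases, with a median rank of 1139 among those expressed, against 3668 for all expressed genes. Fhl1, a LIM protein of the sarcomere, ranked 118 and was even at 15477, 15834, 14525 and 16071. Actc1, the cardiac alpha actin, ranked 155, at 13260.5, 12350.0, 12122 and 15869.6, and Ankrd1 (a titin-associated repressor induced by load) ranked 162. Myh6, the alpha myosin heavy chain of atria and adult mouse ventricle, ranked 337, at 7178, 7345, 7500.5 and 8517. Both troponin I genes were expressed. The slow skeletal and fetal form Tnni1 had 3332, 3404, 5469 and 4889, brighter on chip 2 than on chip 1, while the adult cardiac form Tnni3 had 4302, 4093, 4784 and 4369.8, with little difference between chips. Skeletal alpha actin, Acta1, was dim at 240.3, 178, 108 and 284. Myot and the Z-disc genes Ldb3 and Nexn passed on some arrays only, and Nebl, Cavin4 and Myom2 on 0.

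A few genes named for skeletal muscle were bright. Of 17 such markers, 4 were expressed. Myl1, a fast myosin light chain, ranked 33 by its brighter probe, at 33997, 29688, 30188 and 31052. Its other probe was expressed but far dimmer, at 1230, 997, 1239 and 1313. Myh8, the perinatal myosin heavy chain, ranked 1353, at 2076, 2083, 1832 and 2832. Tnnc2 and Mylpf were dim, at 133, 100.5, 151 and 187.8 and at 67.6, 78.1, 112 and 79.4. The genes of the myogenic factors, Myod1, Myf5, Myog and Myf6, passed on 0 arrays each, as did Pax3 and Pax7.

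Calcium handling genes were expressed in 20 of 27 cases. After Atp2a2 the brightest was S100a1 (a calcium sensor that binds SERCA2 and the ryanodine receptor), at 3274, 5676, 5022 and 2868. Control 2 was highest and control 4 lowest. Slc8a1, the sodium-calcium exchanger, had 2249, 2868, 2399.7 and 2397, and Casq2, the calcium buffer of the sarcoplasmic reticulum, had 1922, 1700.4, 2805 and 2589. Among the channels, the T-type genes Cacna1h (rank 1542) and Cacna1g (rank 3667) were expressed, the L-type gene Cacna1d ranked 7176, and 0 of the 4 probes of the cardiac L-type gene Cacna1c were expressed. The single probe of Ryr2, the calcium release channel of heart, passed on 0 arrays, at 1.38, 11.5, -1.09 and 24.8. Casq1, Trdn and Jph1 also passed on 0.

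Sodium, potassium and pacemaker channel genes were expressed in 7 of 18 cases (38.9%), close to the share of all genes, and 11 of 18 passed on at least 1 array. Atp1b1, a subunit of the sodium pump, ranked 451 and was even, between 5366 and 5812. Kcne1 ranked 853 and Kcnh2 ranked 1010. Their products belong to the channels of the slow and the rapid delayed rectifier current. Kcnh2 had 2608, 4168, 2500.4 and 3174, with control 2 brightest. Hcn2, a pacemaker channel, was expressed at 308, 351, 212 and 415. The probes of Kcnd3, Kcnip2, Kcnj12 and Scn4b passed on 0 arrays.

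Of 15 intercalated disc genes, 11 were expressed (73.3%, against 44.2% of all named genes). Ctnna1 (alpha-E-catenin) ranked 107, and Gja1 (connexin 43, the main gap junction protein of working muscle) ranked 194, at 10889, 8389.7, 10909 and 11256. Gja1, Ctnnb1 (beta-catenin) and Vcl (vinculin) were each lowest on control 2. The cardiac transcription factors had 20 of 29 genes expressed (69.0%). Hey1, a Notch target of atrial muscle, ranked 661, Nkx2-5 ranked 910 at 3180.3, 3765, 2492 and 3262, and Gata6 ranked 1690. Myocd, the coactivator of serum response factor in heart and smooth muscle, had 1969.8, 877, 1723 and 1163, lower at position E on both chips, and only 1 of its 3 probes was expressed. Gata4 was dim at 121, 169.7, 140.3 and 48.3, with control 4 lowest. The pacemaker factors Shox2, Tbx18 and Tbx3 ranked 4397, 4533 and 7026, and Isl1, Hand1 and Hopx passed on 0 arrays.

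The cells had been grown with norepinephrine, which acts through adrenergic receptors. Of 15 genes with a named probe for adrenergic, muscarinic and endothelin receptors and their partners, 8 were expressed (53.3%, against 44.2% of all named genes). Another 10 genes of that list had no named probe. The share therefore does not describe adrenergic receptors alone. The brightest were the G protein genes Gnai2 (rank 1115), Gnb1 and Gnas. Chrm2, the muscarinic receptor of heart, had 543, 175, 187 and 276, with control 1 brightest. Adra2c passed on 1 array and Adra1b on 0. Of 24 growth factor receptor genes, 9 (37.5%) were expressed, close to the share of all genes. They include Bmpr1a (rank 2318), Tgfbr1 (the type I receptor for TGF-beta) at 1064, 848, 947 and 757, and Tgfbr3 (betaglycan, which presents TGF-beta2) at 562, 778, 594 and 460.3. The probes of Tgfbr2, Pdgfra and Pdgfrb, which encode receptors of the growth factors used elsewhere in the series, passed on 0 control arrays.

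The machinery of energy supply was among the brightest. Of 66 genes of oxidative phosphorylation, 62 were expressed, with a median rank of 227.5 among those, and 51 ranked in the first 1000. Atp5b had 48692, 45265, 48664 and 52748, an SD of 6.27% of its mean. Cox8a, a subunit of cytochrome c oxidase, ranked 26. The muscle forms Cox7a1 and Cox6a2 ranked 199 and 214. The chemistry upstream was also present, with 20 of 22 genes of the citric acid cycle, 19 of 25 of fatty acid use and 17 of 19 of glycolysis. Fabp3, the fatty acid binding protein of heart, ranked 59 at 25786, 29581, 25904 and 22446, and Lpl (lipoprotein lipase) ranked 158. The fatty acid transporter gene Cd36 passed on 0 arrays. Gapdh ranked 11, at 43914, 43099, 43849 and 46523, an SD of 3.38% of its mean. Ckmt2, the mitochondrial creatine kinase of muscle, ranked 516, while Ckm, the cytosolic form, passed on 3 arrays. Mb (myoglobin) had 1316, 1359, 1491 and 2839, again with control 4 apart from the rest.

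Of 58 ribosomal protein genes, 52 were expressed with a median rank of 94.5 among those. Proteasome genes were expressed in 28 of 30 cases, chaperone genes in 26 of 29 and the genes of cholesterol synthesis in 18 of 18. Among the last, Hmgcs1, the synthase ahead of the rate-limiting step, ranked 116 at 17269, 14486, 14294 and 20164, and Sqle (squalene epoxidase) stayed between 7297 and 7653. Of 37 genes of exosomes and the ESCRT complexes, which bud vesicles into multivesicular bodies, 31 were expressed. The tetraspanin genes Cd81 and Cd63 ranked 57 and 667, and Tsg101 (an ESCRT-I subunit) ranked 1999, at 1261, 1406, 1476 and 1003. Hspa5, the chaperone of the endoplasmic reticulum, had 859.7, 735, 1394 and 997. The probe of Cd9 passed on 0 arrays.

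Genes of the cell cycle were expressed in the control cells at the end of the 23 h. Of 34 genes of proliferation and mitosis, 26 were expressed. Cenpa, the centromeric histone H3 variant, ranked 94 at 20980.1, 16029.8, 16056 and 21727, and Prc1, which bundles microtubules of the midzone, ranked 142. Cdc20 and Plk1 ranked 450 and 741. Replication licensing genes were expressed in 18 of 19 cases. Mcm6 and Mcm5, parts of the replicative helicase, had 6692, 6200.0, 6889 and 8159 and 5334, 5458, 4422 and 6641, and Cdt1, which loads the helicase, had 5248, 5202, 4352 and 7334. All 3 were brightest on control 4. Inhibitors were present as well, with 16 of 17 genes of the list of cell cycle inhibitors, p53 and RB expressed. E2f1, the transcription factor that RB restrains, was the most even, at 4326, 4493, 4600.4 and 4487. Cdkn1a (p21) stood at 2869, 2929, 2531 and 2210.4, and Cdkn2a, which encodes p16 and ARF, at 1552, 1834, 1549 and 1847. The D-type cyclin gene Ccnd1 passed on 2 arrays.

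Of 9 regulator genes on a list taken from the names in the paper, 5 were expressed (55.6%), Gata4 among them. The share of all named genes was 44.2%. All 3 probes of Hdac5, a class II histone deacetylase, were expressed, and the brightest had 1372, 1624, 1683 and 1740.2. Nfat5, a transcription factor of the osmotic stress response, had 845, 723, 688 and 694 at its brightest probe, and the dimmest of its 3 probes passed on 1 array. Fos and Jun, the AP-1 genes, had 381, 289, 346 and 254 and 81.2, 98.5, 83.7 and 34.6. Sp1 passed on 1 array (control 3), Myc on 1 (control 1), and Pou5f1 and Esr1 on 0. Jun and Gata4 each had control 4 lowest.

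Markers of other cell types were mostly not expressed. Of 15 fibroblast markers, 1 was expressed (Ddr2, a collagen receptor, at 118, 83.6, 107 and 97.1), and the signals of the whole list summed to between 116 and 225 per array. Col1a1, Col1a2, Pdgfra, Postn and Dcn passed on 0 arrays. Of 14 leukocyte markers, 1 was expressed (Cd3e, between 31.8 and 78.5), with a sum between 75.2 and 189, and Itgam, Adgre1 and Lyz2 passed on 0. Of 14 endothelial markers, 4 were expressed (Egfl7, Npr3, Plvap and Nfatc1), with a sum between 4083 and 4976, while Cdh5, Tek, Tie1 and Vwf passed on 0. Egfl7, which encodes a secreted factor of vessels, carried most of that sum at 3300.3, 3547, 2627 and 2943. Smooth muscle markers were expressed in 6 of 10 cases (60%, against 44.2% of all named genes). They were Acta2, Des, Mylk, Smtn, Tagln and Synpo2, of which heart muscle also uses Des and, when immature, Acta2. Myh11, Cnn1, Actg2 and Lmod1 passed on 0 arrays. Of 13 epithelial markers, Krt18 and Krt8 were expressed, and Krt8 had 116, 179.6, 164 and 454, highest on control 4. Tbx18 was the only expressed gene of 9 epicardial markers, and the erythroid list had 1 of 9 (Itga2b).

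Families known mainly for other tissues were used to describe the floor of the call. Whether any of their called members were transcribed in these cells was not tested. Of 1058 olfactory receptor genes, 8 were expressed by the rule (0.756%), the brightest at a median of 116, and of 138 vomeronasal receptor genes 2 were (1.45%). Defensin and taste receptor genes had 0 of 48 and 0 of 35. Of 37 Hox genes, 3 were expressed, with Hoxa5 highest at 482, 428, 326 and 319. Of 15 genes of the Y chromosome, 1 was expressed, Uty, at 35.8, 48.4, 40.3 and 86.2, and Xist, the RNA that silences an X chromosome, passed on 2 arrays. Of 22 imprinted genes, 7 were expressed (31.8%, against 44.2% of all named genes). Igf2, the paternally expressed growth factor gene, ranked 185 at 12066, 11240.3, 9603 and 11519, and Grb10 had 667, 733, 728 and 279, with control 4 lowest. By chromosome, the share of expressed genes lay between 35.7% (chromosome 7) and 52.2% (chromosome 5) apart from the Y. Without olfactory and vomeronasal receptor genes it lay between 40.1% and 52.6%, again apart from the Y.

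Promoters of expressed genes were richer in CG dinucleotides than those of genes whose probes passed on 0 arrays. Over the 300 bases shown above for 5 genes, the median was 6 in 5638 undetected genes, 13 in 1628 genes detected on some arrays and 19.5 to 22 in 5 classes of expressed genes of rising signal. The GC content rose from 52% to about 61% (60.7% to 61.1% in the 5 classes). TATAAA on either strand was found in 19.05% of undetected and 6.82% to 8.32% of expressed classes, and the GC box GGGCGG in 32.4% and 62.7% to 70.0%. The sarcomere and atrial genes differed from the other groups described. Expressed sarcomere genes had a median of 7 CG dinucleotides (26 genes) and atrial genes 7 (11 genes). The median was 22 for ribosomal, 19 for oxidative phosphorylation, 22 for licensing and 25 for proliferation genes. Low counts did not hold for all heart groups, as calcium handling genes had a median of 21 (15 genes). Of the 100 genes of highest signal, the 83 with a promoter had a median of 19. CArG boxes stood in 13.5% of the sarcomere promoters and TATAAA in 23.1%, where a gene with several starts counted by its share. These are descriptions of letters in a fixed window and were not tested.

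**Figure D4:**
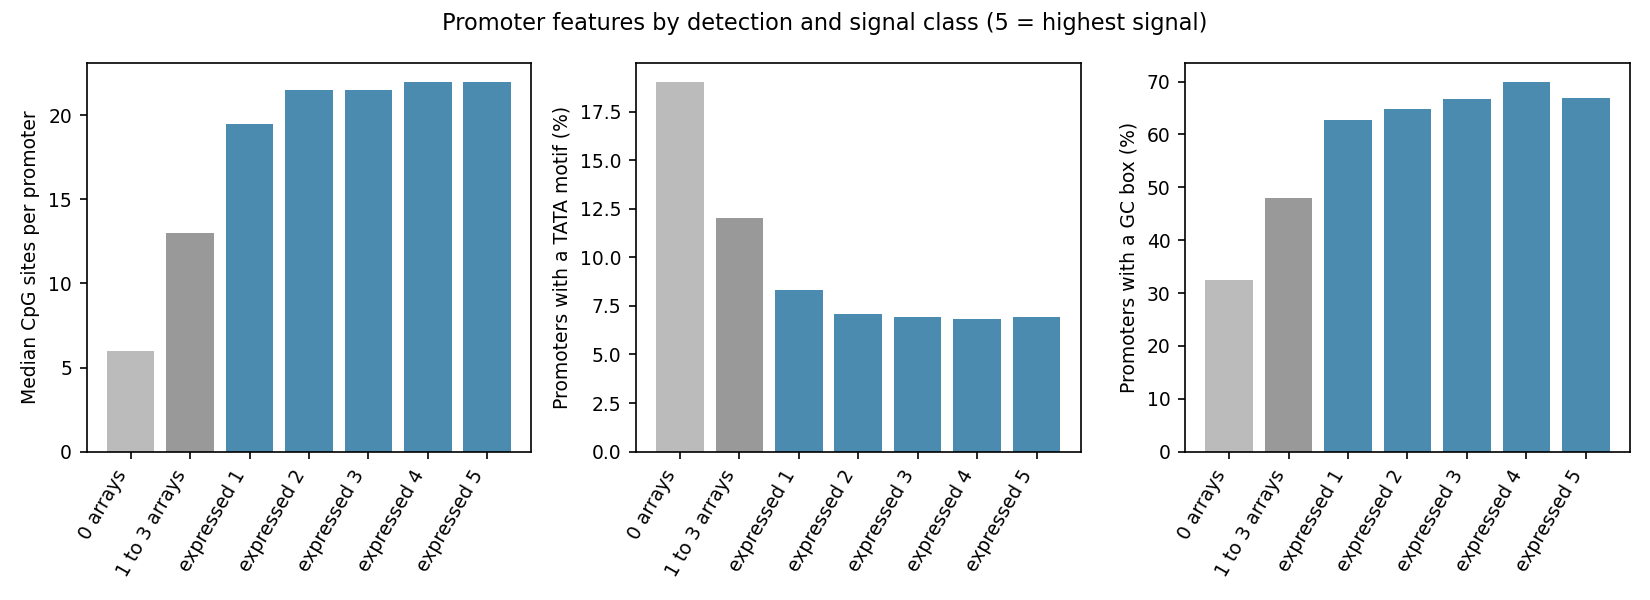
Promoter features over 300 bases by detection and signal class of the control arrays, grey for genes detected on 0 or on 1 to 3 arrays and blue for 5 classes of expressed genes from dimmest (1) to brightest (5). Left, the median number of CpG sites is 6 for undetected genes and 19.5 to 22 for expressed ones. Middle and right, the percent with a TATA motif falls from 19.05% and the percent with a GC box rises from 32.4%.

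The flasks were alike over most genes. Pearson's r of log2 signals over the expressed probes, which share arrays and are not independent, was between 0.973 and 0.985 for the 6 pairs of arrays, lowest for control 2 with control 3 and highest for control 1 with control 3. The coefficient of variation over the 4 arrays had a median of 15.7%, from 23.6% in the dimmest class of expressed probes to 12.2% in the brightest. The brightest array exceeded the dimmest by at least 2-fold for 1123 expressed probes (10.5%). Control 2 was at least 2-fold below every other array at 67 probes, against 5, 17 and 14 probes for control 1, 3 and 4. Of the 10 probes with the largest ratio of highest to lowest signal, among those with a median above 100, 9 were lowest on control 2. Ranked by CV instead, a choice made after the values were seen, 6 of 10 were lowest on control 2 and 6 were highest on control 4, with 3 probes in both sets. Myl2 led that order, with a CV of 83.9%. For Klf6, a zinc finger transcription factor, the signals were 871, 198, 999 and 409, and for Ube3a, the ubiquitin ligase of Angelman syndrome, 635, 157, 798 and 425. Trim56 had 229.9, 49.9, 380.2 and 152. The exception was H2ac12, a replication-dependent histone gene, at 129, 198, 35.6 and 149, lowest on control 3. What set control 2 apart was not tested.

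Groups of genes also differed in the flask where they were brightest. Over 7328 expressed genes whose brightest probe passed on all arrays, 16.8% had their highest signal on control 1, 33.5% on control 2, 24.2% on control 3 and 25.6% on control 4. Of the sarcomere genes, 16 of 29 (55.2%) were highest on control 4, as were 4 of 6 ventricular genes, 11 of 17 licensing genes, 13 of 26 proliferation genes and 12 of 16 interferon response genes. The ventricular genes stood a median of 0.74 (log2) above the median of the other arrays there and the sarcomere genes 0.15, while all expressed genes stood at -0.01. On control 3, by contrast, 23 of 52 ribosomal genes (44.2%), 25 of 62 genes of oxidative phosphorylation (40.3%) and 13 of 26 chaperone genes were highest. Ribosomal genes stood 0.15 above the other arrays on control 3 and were lowest on control 4 in 29 of 52 cases. These counts were made after the values had been seen and were not tested.

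**Figure D5:**
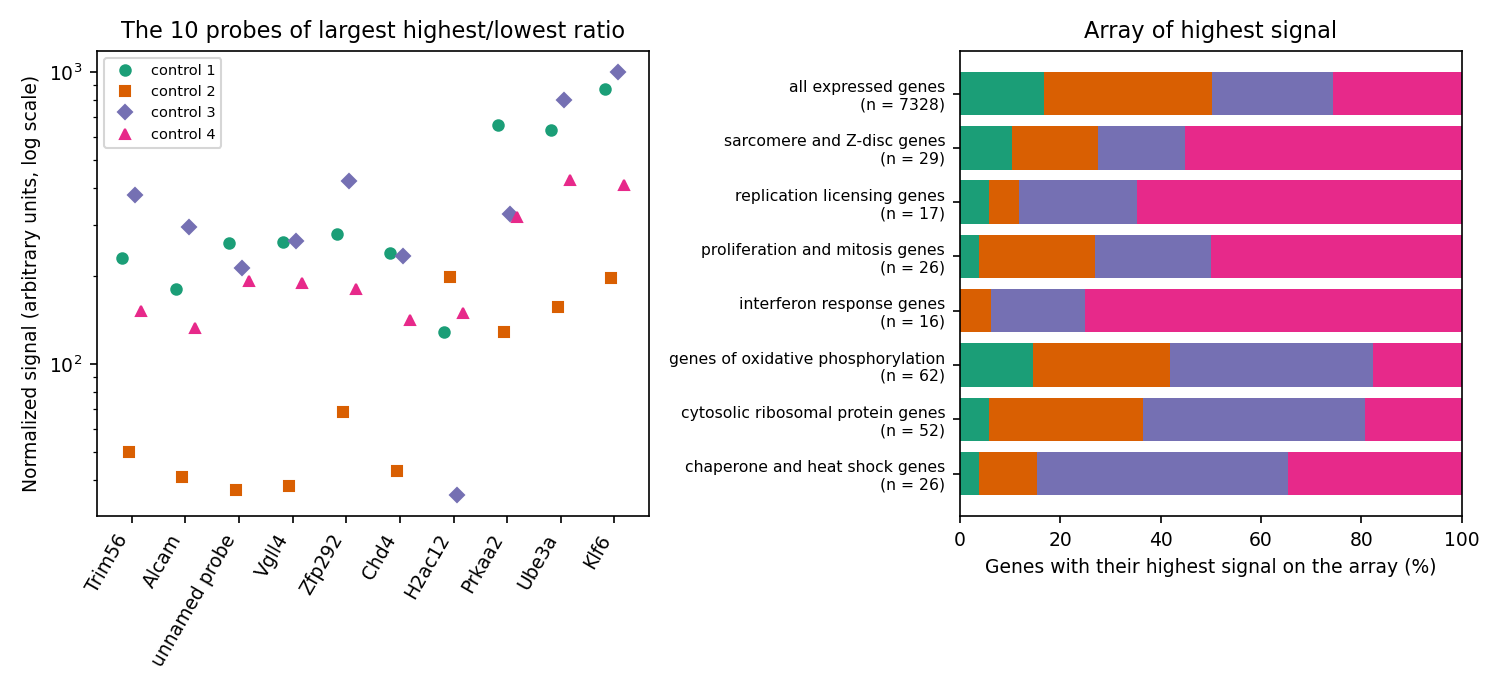
Left, normalized signal (arbitrary units, log scale) of the 10 probes with the largest ratio of highest to lowest signal on the 4 control arrays, with control 2 lowest for 9 of them. Right, percent of the genes of a group that had their highest signal on each array, where control 4 takes 55.2% of 29 sarcomere genes against 25.6% of all 7328.

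Chip and position were compared with limma across all 10651 expressed probes. Between the chips, 0 probes (0%) differed at an adjusted p under 0.05, with 469 at an unadjusted p under 0.05 and a lowest adjusted p of 0.960. Between positions A and E, 0 differed as well, with 618 at an unadjusted p under 0.05 and a lowest adjusted p of 0.380. The median size of the difference was 0.17 (log2) between chips and 0.16 between positions. On the log2 of the authors' normalized signals, 0 probes differed in either comparison. Both counts of 0 depended on the fit. With the other grouping as a second term, which left 1 residual degree of freedom, 10 probes differed between chips and 99 between positions. Without control 1, 2 probes differed between chips, and without control 4, 93 differed between positions. Each side held 2 arrays, so small differences were not detectable. In the main fits, 12 probes differed at least 2-fold between chips and 52 between positions, and 0 of them passed. The counts of 0 therefore do not show that larger differences were absent.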

How the data were processed

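RNA of HL-1 cells was measured on Illumina MouseRef-8 beadchips, 1 array per flask. The values deposited by the authors are, per probe, the background-subtracted intensity before normalization with its detection p-value, the number of beads and their standard error. They also deposited a normalized intensity on a linear scale, which the paper's methods credit to the cubic spline algorithm of Beadstudio and the processing notes to GenomeStudio (no version given). The deposited signal standard error of the beads was used only to describe precision, at a median of 5.39% to 6.47% of the signal of expressed probes. Dim signals fall below 0 at 6404 to 6414 probes per array. Normalized and non-normalized signals ranked the probes of an array alike (Spearman's rho of 1).

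Only the 4 control arrays were used, and no 2 of them held identical values. Groups came from the treatment label, chip and position from the array description. Signals, ranks and lists were computed in Python 3.11.15 with pandas 2.3.3 and numpy 2.4.6. Chip and position were compared with limma 3.58.1 in R 4.3.3 (lmFit and eBayes, Benjamini-Hochberg adjustment) on the non-normalized intensities after neqc, which corrects the background from the detection p-values, adds an offset of 16, quantile-normalizes and takes log2. The fit was also run on simulated arrays, and no result given here rests on that run. For correlations, normalized signals under 16 were set to 16 before log2. Array data carry no read depth, so the number of arrays and beads limits the precision.

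Probes were named from the platform annotation, with 1 symbol for 23978 of 25697 probes, several for 0 and none for 1719, and 23962 symbols were updated through Entrez identifiers. Of 987 list symbols, 113 had no named probe. Promoters were found for 13335 genes. A gene with several annotated starts entered with the mean over its starts. Motifs were searched on both strands. A CpG count is the number of CG dinucleotides.

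The genes named are the 4 marker genes, the 20 brightest probes, the 6 brightest expressed and any not expressed members of a list, the 10 probes with the largest ratio of highest to lowest signal and a median above 100, the 3 probes on either side of the detection limit and the genes the paper names. Some further members were named for their known role after their values were seen. The arrays, markers and lists were chosen with earlier results of these data known. The gene families known mainly for other tissues, the array of highest signal and the printed promoters were chosen after the values were seen. Protein lengths, planned with the promoter features, were not analysed here.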

Additional observations from a re-analysis of the deposited data

Results flagged for a closer look

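For 19 of the 315 probes examined, those that the naming rule gave, 1 of the 4 control arrays lay far from the other 3, by a gap larger, as a share of the whole range, than Dixon's 95% critical value for 4 samples. Chance gives such a gap for about 1 in 20 probes, or 15.75 of 315. No explanation was tested for any of them.

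Control 4 was the array apart for 10 of the 19 probes. It was high for Atp2a2 (29981 against 25443 to 25919), Actc1 at its dimmer probe (8629 against 5032 to 5394), Myl2 (856 against 201 to 258) and Mb (2839 against 1316 to 1491). It was also high for Cox4i1, a cytochrome c oxidase subunit (33208 against 29907 to 30341), Idh3g, a subunit of isocitrate dehydrogenase, at 1 of its probes (14388 against 12313 to 12607), Gnas, the stimulatory G protein (3220.3 against 1868 to 1951), Vil1, a marker of gut epithelium (439.8 against 365 to 367), and Usp18, an interferon-induced protease, at 1 of its probes (511 against 289.5 to 317). It was low for Grb10, an imprinted adaptor gene (279 against 667 to 733).

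Control 2 was low for Gja1 (8389.7 against 10889 to 11256) and for an unnamed probe, ILMN_1250983 (40667 against 46049 to 47105). It was also low for the brightest probe of Cdk2, a kinase of the G1 to S transition (2631 against 3242 to 3327). Dimmer expressed probes of Cdk2 were instead highest on control 2, at 1450 against 1180 to 1271 and at 572 against 369 to 454. Control 2 was high for 1 probe of Hdac5 (250.4 against 129 to 132). Control 3 was low for 1 probe of Acta2 (30439 against 34139 to 34246), for 1 probe of Stard10 (1108 against 1565 to 1655) and for Gamt, which makes creatine (600.4 against 827 to 865), and high for 1 probe of B2m, a part of MHC class I (15724 against 11534 to 12076). Control 1 was high for Fh1, fumarase (5647 against 5023 to 5092).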

How the results depend on the processing

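The counts of expressed probes, expressed genes and expressed list genes stayed within 1.5 times their values under each alternative run: a detection p-value under 0.01, at least 3 or at least 1 of 4 arrays, an added signal above 30, each array left out, and, for list genes, probes in place of genes. The strictest gave 9847 probes and 6873 genes and the loosest 13875 and 9448. The share of all genes with several probes whose probes disagree rose from 19.6% to 33.1% with at least 1 of 4 arrays. The brightest 100 probes held 20.7% of the non-normalized signal and 20.4% of the signal of expressed probes. The median CV was 19.2% for non-normalized signals and 14.3% above a signal of 100 on all arrays, and between 13.7% (without control 2) and 16.7% (without control 1) with 1 array left out. With the other grouping as a second term, which leaves 1 residual degree of freedom, 10 probes differed between chips and 99 between positions, 89 of these lower at position E. With 1 array left out, between 0 and 2 differed between chips (2 without control 1) and between 0 and 93 between positions (93 without control 4), where the lone array of a side is assumed to vary like the others. The cause was not tested. The difference of 16 in median CpG count between the brightest expressed class and undetected genes became 15.5 under both alternatives. Of 40 lists, the count of expressed genes moved by more than 1.5 times for 12 with at least 1 of 4 arrays, 10 with probes counted, 4 under a detection p-value of 0.01 and 2 with at least 3 arrays or without control 3. The ranks of Myl7, Nppa and Atp2a2 moved by no more than the SD of their ranks over arrays under any alternative run. No paired analysis was possible because the replicate numbers could pair control arrays only with treated arrays, which were not compared; chip and position, which cross, were fitted together as given above. Protein length was not run.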

Other observations

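Several of the brightest genes are on no list. Slc47a1, which encodes a transporter that exports organic cations, ranked 13, at 42301, 42747, 41129 and 46712 on control 1 to 4. It was named because it is among the 20 brightest probes, and the genes that follow were chosen after their values were seen. Fth1, the heavy chain of ferritin, ranked 18, at 37810.1, 39174, 32611 and 49412, with control 3 lowest and control 4 highest. Chchd10, a protein of mitochondrial cristae, ranked 20, and Gpx3, a secreted glutathione peroxidase, ranked 21. Gpx3 was more even, between 34267 and 40134.

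Other bright genes are named for tissues other than heart or for a stimulus. Psg23, a pregnancy-specific glycoprotein gene, ranked 65, at 22719, 26354, 25919 and 23404. Irgm1, an interferon-induced GTPase, ranked 55, at 26584, 27272, 31177 and 22072, and 16 of 24 genes on the list of interferon response genes were expressed (66.7%, against 44.2% of all genes). On that list 5 genes passed on 0 arrays, among them Mx1, Oas1a and Rsad2. Mgp, an inhibitor of calcification, ranked 42, at 27064, 31856, 29891 and 19738, with control 4 lowest. Mt1 (metallothionein) ranked 37 and Mif (macrophage migration inhibitory factor) ranked 34. A family member with a near-identical sequence may add to the signal of Psg23, which was not tested.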
